A study of Mus musculus with 15 samples.

Results

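A set of 10 genes known from meningeal fibroblasts is described here across the hippocampal libraries of a study of memory in the mouse, library by library. They are Igf2, 3 transporter genes (Slc13a4, Slc6a13 and Slc22a6), Aldh1a2, 3 small leucine-rich proteoglycans (Fmod, Ogn and Dcn) and the collagen I genes Col1a1 and Col1a2. They were selected on their measured counts in these same libraries, so their levels and their likeness to each other are a description and no test is drawn from them. The 10 genes are part of 37310 in the count table, and all 10 were among the 18008 genes with enough reads to be tested.

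By the article, the groups were 3 sets of 5 male C57BL/6J mice, all 2 months old. The series' own description differs on the number of animals, so n counts libraries. FC mice were placed in a chamber for 2.5 min, received 1 foot shock of 1.5 mA for 2 s, and gave tissue 30 min later. RT mice were trained in that way, had a 5-min retrieval test 24 h later, and gave tissue 30 min after it. CC mice were handled but not trained and were dissected at the matching time of day, and all groups had been handled for 3 days. A library held polyA RNA of both hippocampi of 1 mouse, and libraries are named by group and number, 3, 5, 6, 7 and 8. Wherever 5 values are listed for a group they stand in that order of numbers. Because the tissue was read in bulk, fewer cells of a type and less RNA per cell cannot be told apart.

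As background, the leptomeninges are thin sheets of fibroblasts that cover the brain and dip into the fissure of the hippocampus. Their cells lay down collagens and proteoglycans, carry transporters that move sulfate, neurotransmitters and organic anions between blood, cerebrospinal fluid and brain, and make retinoic acid. Igf2 is an imprinted insulin-like growth factor that in the adult rodent brain is made largely by the meninges and the choroid plexus, and it has been studied in the rodent hippocampus as a factor in memory.

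Totals ran over 42051401 to 59093377 reads in FC, 35731428 to 61275293 in RT and 39992029 to 62555543 in CC, and the 10 genes together took 0.0128% to 0.029% of a library. Counts were scaled by the upper quartile (UQ), which corrects for depth only. FC3 and RT3 stood apart from the rest. The interquartile range of their relative log expression, the spread of all tested genes around their median over libraries, was 0.828 and 0.436, against at most 0.117 in the other 13 libraries. Results that rest on FC3 and RT3 are therefore also given without them. Fos, an immediate early gene induced by neuronal activity, separated trained from untrained libraries, with 1148 to 1698 UQ counts in FC and 977 to 1257 in RT, against 219 to 357 in CC.

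The bases just before the start sites of 5 of the genes are shown because 4 of these genes, Igf2, Slc13a4, Fmod and Col1a2, moved together from library to library, while the fifth, Ogn, followed them less closely. Sequences are from RefSeq on GRCm38.p6, 5′ to 3′ on the strand of the gene, 250 bases each. Igf2 is at chr7:142657497-142657746 on the minus strand and is the window nearest to the end of the gene among 4 listed for it. Slc13a4 is at chr6:35308127-35308376 on the minus strand. The windows on the plus strand are Fmod at chr1:134037004-134037253, Col1a2 at chr6:4505368-4505617 and Ogn at chr13:49607765-49608014. Capitals mark matches on either strand to the motif CCAAT, to the GC box with the letters GGGCGG and to the letters TATAAA.
Igf2: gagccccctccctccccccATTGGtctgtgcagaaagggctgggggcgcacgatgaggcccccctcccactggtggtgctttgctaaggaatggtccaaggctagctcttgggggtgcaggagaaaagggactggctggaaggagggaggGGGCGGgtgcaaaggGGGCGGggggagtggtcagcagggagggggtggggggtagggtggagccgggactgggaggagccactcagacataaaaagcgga
Slc13a4: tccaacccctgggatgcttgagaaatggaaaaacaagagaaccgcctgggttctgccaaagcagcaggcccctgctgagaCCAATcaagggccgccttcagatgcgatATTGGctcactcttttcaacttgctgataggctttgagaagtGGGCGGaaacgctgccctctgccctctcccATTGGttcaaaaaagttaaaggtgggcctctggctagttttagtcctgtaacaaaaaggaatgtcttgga
Fmod: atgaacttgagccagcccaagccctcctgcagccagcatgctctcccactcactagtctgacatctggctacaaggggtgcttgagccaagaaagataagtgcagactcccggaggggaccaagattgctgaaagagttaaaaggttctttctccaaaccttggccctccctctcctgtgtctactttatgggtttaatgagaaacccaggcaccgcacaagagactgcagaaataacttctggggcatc
Col1a2: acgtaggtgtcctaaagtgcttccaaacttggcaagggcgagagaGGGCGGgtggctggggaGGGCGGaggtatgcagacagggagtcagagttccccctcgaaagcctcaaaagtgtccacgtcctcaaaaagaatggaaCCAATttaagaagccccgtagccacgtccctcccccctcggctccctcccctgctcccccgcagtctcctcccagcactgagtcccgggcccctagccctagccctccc
Ogn: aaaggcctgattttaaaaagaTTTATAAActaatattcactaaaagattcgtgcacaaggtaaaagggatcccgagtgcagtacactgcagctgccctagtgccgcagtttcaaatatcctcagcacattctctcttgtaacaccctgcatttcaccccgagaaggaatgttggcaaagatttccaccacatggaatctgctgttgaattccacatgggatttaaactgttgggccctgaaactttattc

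Of the 32851 promoter windows of that length in the table, 33.8% held CCAAT, 32.7% held GGGCGG and 12.4% held TATAAA. Of the 10 genes, 8 had windows in the table, 13 in all, and 6 of those 13 held CCAAT, 5 held GGGCGG and 1 held TATAAA. Of the windows shown, that of Slc13a4 held CCAAT 3 times, and those of Igf2 and Col1a2 held it once each. Among the windows not shown, that of Slc22a6 also held it 3 times, and the other windows of Igf2 did not hold it. The Fmod window held none of these motifs. TATAAA matched in Ogn only, where matches on both strands overlap within 1 stretch. This stretch lies near the end of the window farthest from the start site. GTAAACA, a motif bound by forkhead factors, was in 3.17% of all windows and in 0 of the 13. Col1a1 and Dcn have no entry there. A match is a run of letters and not a measured binding site.

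Levels between genes can be compared only per length. In UQ-scaled CPM per kilobase of exons, Dcn had the highest level (25.1 ± 5.29, SD over 15 libraries), followed by Igf2 (11.8 ± 3.45), with ranges of 15.8 to 37.2 and 7.03 to 18.2 that overlapped at their ends. The other 8 genes lay between 4.36 ± 2.12 for Slc6a13 and 1.38 ± 0.585 for Slc22a6. In order, they were Slc6a13, Fmod, Aldh1a2, Ogn, Slc13a4, Col1a1, Col1a2 and Slc22a6, and neighbours among these 8 did not differ by more than their spread. All further values are UQ counts of a gene.

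Igf2 lies on chromosome 7 at 149836673 to 149852721 on the minus strand (mm9). It shares 98 bases of exons with Igf2as on the other strand, and the library kit is not described as stranded, so reads there cannot be told apart. Its counts were 4290, 4863, 3613, 1975 and 2537 in FC, 5107, 2367, 3340, 2760 and 2769 in RT, and 2233, 4473, 3214, 3216 and 3140 in CC. All 3 groups overlapped, with the lowest library (FC7) and the second highest (FC5) both in FC. Igf2 averaged 3456 ± 1198 in FC, 3269 ± 1085 in RT and 3255 ± 798 in CC (SD, n = 5 each), and the highest library had 2.59 times the count of the lowest.

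The 3 transporters had wider ranges than Igf2. Slc13a4, on chromosome 6 at 35217957 to 35258131, encodes a sodium-coupled sulfate carrier. Its counts were 787, 870, 623, 218 and 343 in FC, 776, 396, 425, 437 and 539 in RT, and 360, 920, 433, 428 and 315 in CC. CC5, FC5, FC3 and RT3 were the 4 highest libraries and FC7 the lowest, a 4.22-fold range that ran across the groups. Slc6a13, at 121250245 to 121287751 on the same chromosome, encodes a carrier of GABA and taurine. Its counts were 1539, 646, 706, 359 and 369 in FC, 1085, 406, 506, 564 and 472 in RT, and 488, 885, 661, 558 and 467 in CC. FC3 alone exceeded 1085, and FC7 and FC8 were the lowest. Slc22a6, on chromosome 19 at 8692486 to 8702789, encodes an organic anion transporter best known from the kidney. It had 533, 310, 313, 109 and 178 counts in FC, 482, 192, 237, 294 and 272 in RT, and 201, 444, 238, 281 and 173 in CC. Its 3 highest libraries were FC3, RT3 and CC5, 1 from each group.

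Aldh1a2, on chromosome 9 at 71063596 to 71144050, encodes a retinaldehyde dehydrogenase that makes retinoic acid. Its counts were 583, 321, 355, 140 and 201 in FC, 469, 221, 249, 295 and 305 in RT, and 233, 592, 293, 302 and 217 in CC. CC5 and FC3 were at nearly the same level, and FC7 was again the lowest. The means were 320 ± 171 in FC, 308 ± 96.4 in RT and 327 ± 152 in CC (SD, n = 5 each), so that each group's SD was far larger than the distance between the means.

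The 3 proteoglycans, which bind collagen fibrils, did not behave alike. Fmod (fibromodulin), on chromosome 1 at 135933831 to 135944854, had the widest range of the 10 genes, 6.67-fold. It had 1360, 675, 705, 204 and 247 counts in FC, 1166, 344, 583, 508 and 476 in RT, and 372, 1161, 561, 473 and 332 in CC. FC3, RT3 and CC5 lay at 1161 or above, and no other library exceeded 705. Ogn (osteoglycin), on chromosome 13 at 49703440 to 49719869 within the span of Cenpp, had 205, 552, 374, 220 and 278 counts in FC, 352, 213, 308, 257 and 367 in RT, and 256, 532, 253, 327 and 261 in CC. Like the genes above it was high in CC5, but in FC3 it had its lowest count. Dcn (decorin), on chromosome 10 at 96942245 to 96980777, had 1565, 2481, 2191, 2409 and 2641 counts in FC, 2597, 2762, 2970, 2621 and 1846 in RT, and 2923, 3679, 2456, 2387 and 1780 in CC. Dcn was lowest in FC3 and highest in CC5, and in FC7, where most of the other genes were lowest, it had 2409 counts.

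Col1a1 and Col1a2 encode the chains of collagen I. Col1a1, on chromosome 11 at 94797538 to 94814356, shares 109 bases of exons with Gm17329 on the other strand. Its counts were 823, 582, 541, 343 and 440 in FC, 904, 418, 559, 500 and 567 in RT, and 506, 717, 696, 586 and 546 in CC. Col1a2, on chromosome 6 at 4454814 to 4491543, had 1272, 1012, 922, 572 and 638 counts in FC, 1305, 711, 867, 794 and 873 in RT, and 759, 1276, 917, 962 and 775 in CC. The chains kept close to each other: the ratio of Col1a1 to Col1a2 counts had a median of 0.645 and stayed between 0.562 (CC5) and 0.759 (CC6).

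**Figure D1:**
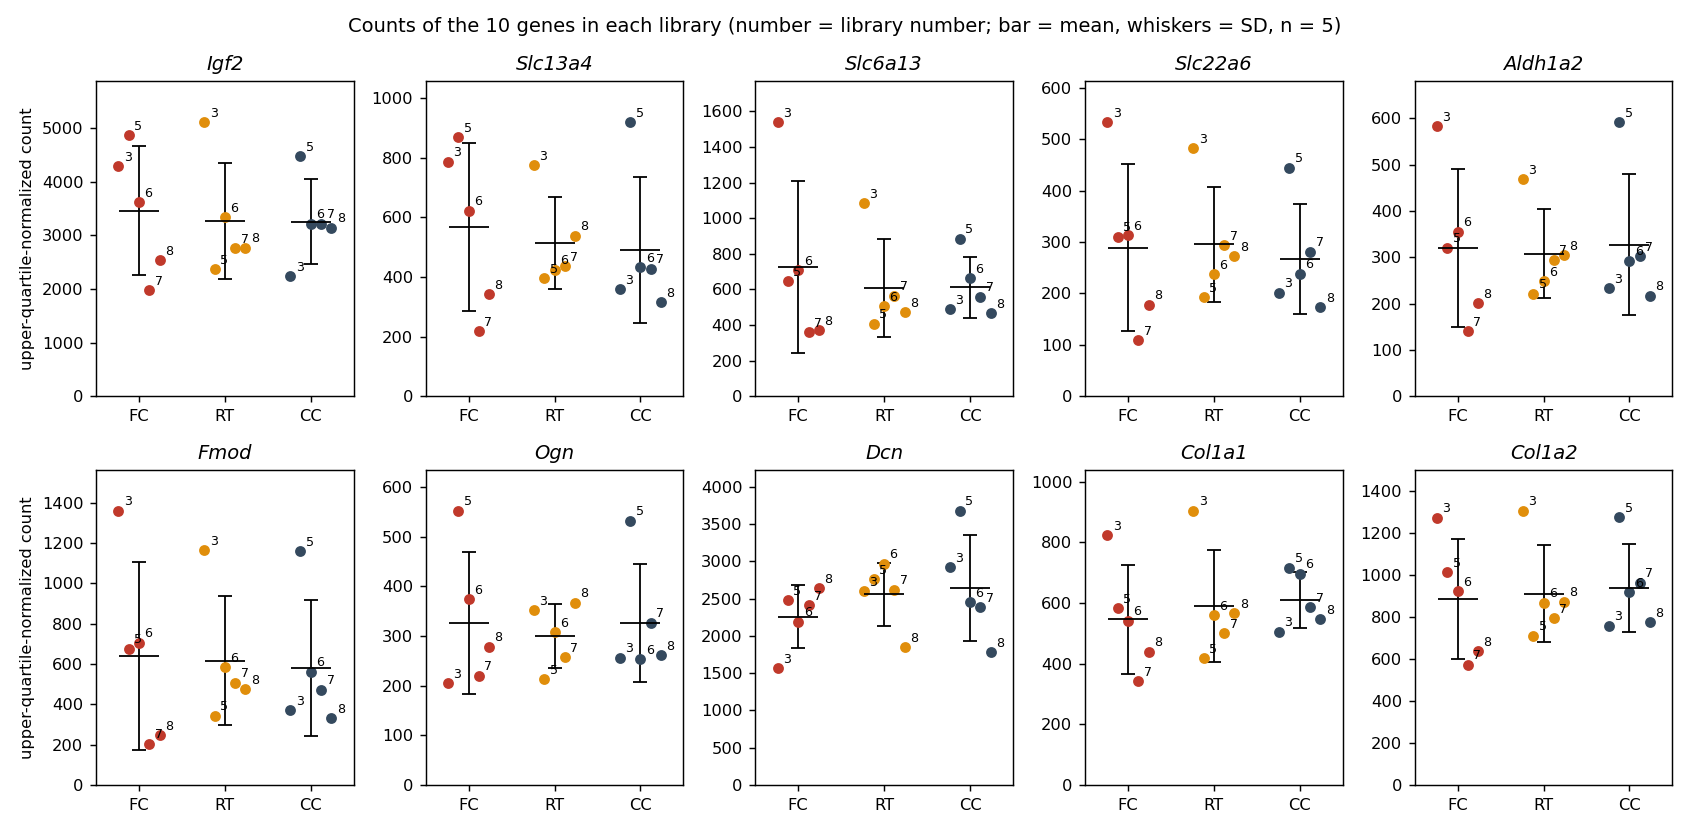
UQ-normalized counts (y axis, from 0) of the 10 genes in FC, RT and CC; each point is a library with its number, the bar is the mean and the whiskers the SD (n = 5 per group). FC3, RT3 and CC5 are the 3 highest points for Slc6a13, Slc22a6, Aldh1a2, Fmod, Col1a1 and Col1a2, and the groups overlap for all 10 genes.

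To describe how the genes moved together, each gene's log2 UQ count plus 1 was set against its mean over the 15 libraries, and the deviations of the 10 genes were averaged. This mean deviation was 0.57, 0.34, 0.19, -0.81 and -0.46 in FC, 0.64, -0.38, -0.03, -0.08 and -0.06 in RT, and -0.28, 0.72, 0.00, -0.00 and -0.36 in CC. CC5, RT3 and FC3 were the highest libraries, FC7 and FC8 the lowest, and the highest stood at 2.88 times the lowest on the linear scale. Group means were -0.03 ± 0.58 in FC, 0.02 ± 0.38 in RT and 0.01 ± 0.42 in CC (SD, n = 5 each). FC and RT libraries that share a number did not always share this deviation: FC5 lay above the mean and RT5 below it.

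Of the 10 genes, 8 ran in parallel. Without Dcn and Ogn, the 28 pairs of genes had Pearson's r of 0.78 to 0.98 across the 15 libraries, with a median of 0.91 (Spearman's rho 0.73 to 0.97). After the group means were subtracted the range was 0.82 to 0.99, and without FC3 and RT3 it was 0.71 to 0.97. Each point is a library, in which both genes of a pair were read from the same tissue at the same depth, and the genes were chosen on these counts. Col1a2 was closest to the mean of the other 9 genes (r = 0.98, rho = 0.98), and Igf2 had r = 0.91 (rho = 0.90). Leaving out the 2 libraries farthest from the median, CC5 and FC7, gave r = 0.96 for Col1a2 and r = 0.87 for Igf2.

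The counts of Dcn went against its place in the set. Dcn had r = -0.03 (rho = -0.11) with the mean of the other 9 genes, and 0.28 without FC3 and RT3, and its r with each of the other genes lay between -0.20 and 0.33. Ogn had r = 0.50 (rho = 0.42) with the other 9 genes, 0.82 without FC3 and RT3, but 0.25 without CC5 and FC7. Ogn and Dcn have the lowest GC content of the 10 genes: 36.3% and 43.1% of their exonic bases are G or C, against 44.8% for Col1a2, 50.2% to 57.7% for the other 7 genes and a median of 50.03% over 14991 genes. In FC3 the deviation of a gene had r = 0.37 with its GC content across those 14991 genes, which are not independent, and in RT3 r = 0.34. The other 13 libraries lay between -0.34 and 0.34. The part of base composition in the counts of Ogn and Dcn was not tested.

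Igf2 stayed close to the other 9 genes within a library. Its deviation minus theirs corresponded to a ratio of 0.891, 1.22, 0.991, 1.09 and 1.10 in FC, 1.02, 0.961, 1.08, 0.902 and 0.89 in RT, and 0.833, 0.836, 1.00, 1.01 and 1.29 in CC. The ratio thus ranged from 0.833 in CC3 to 1.29 in CC8, both in the untrained group. Against the choroid plexus list, the other known source of Igf2 in the brain, Igf2 had r = 0.16 (rho = 0.09) across the 15 libraries and -0.11 without FC5 and FC8, the 2 libraries farthest out. The deviation of Igf2 minus that of the other 9 genes had r = 0.36 (rho = 0.29) with this list, 0.36 without FC3 and RT3, but -0.17 without FC5 and FC8.

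**Figure D2:**
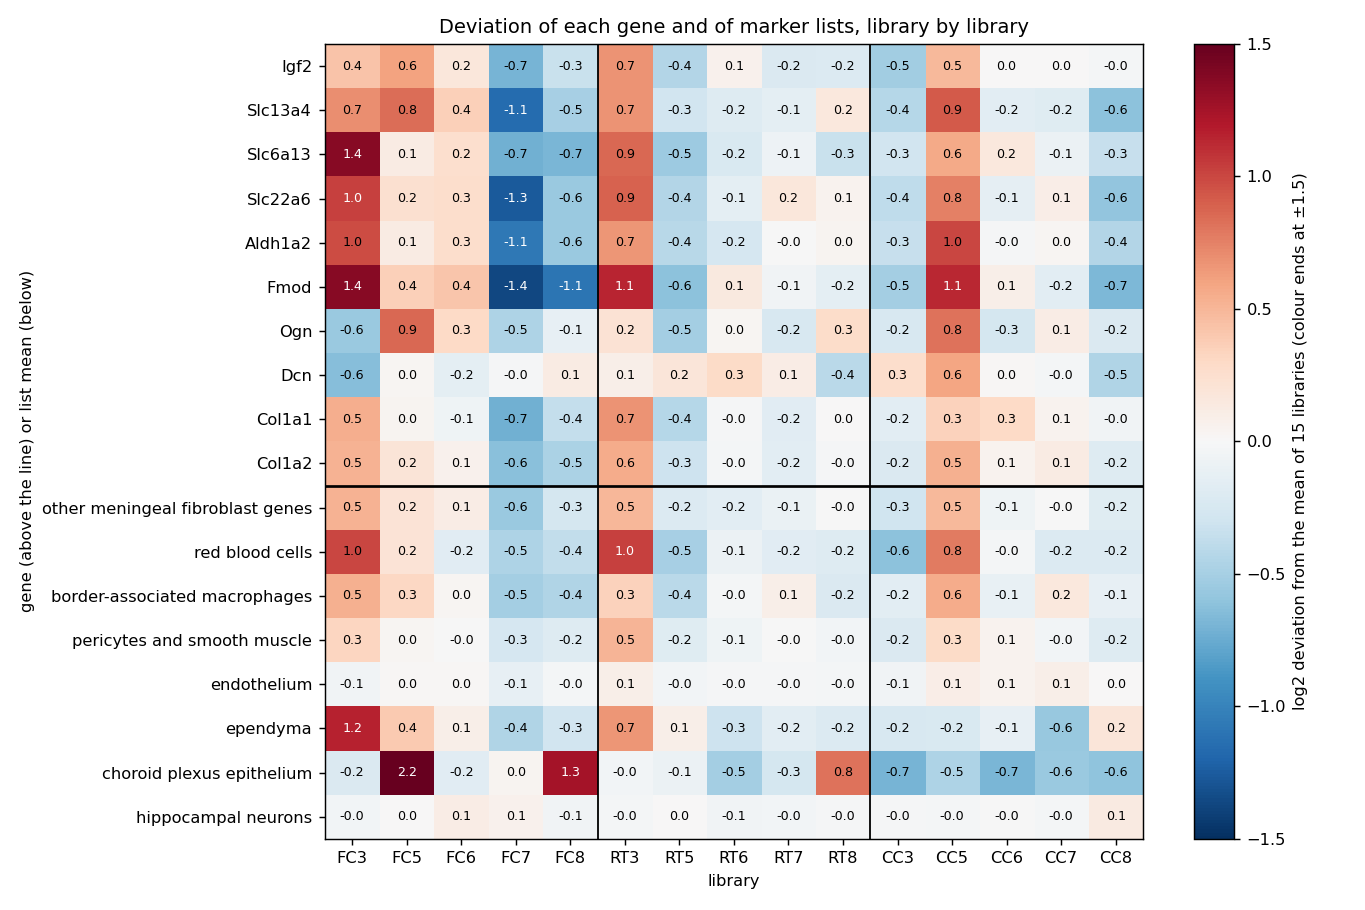
Log2 deviation from the mean of the 15 libraries (colour and printed value) for the 10 genes, above the line, and for the mean of 8 marker lists, below it; columns are libraries. FC3, RT3 and CC5 are red and FC7 and FC8 blue for most of the 10 genes, while the choroid plexus list is highest in FC5 (2.18).

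The comparison of the groups asked whether conditioning or retrieval went with a difference in these genes. No gene of the 10 separated the groups: the ranges of the FC, RT and CC counts overlapped for every gene and every pair of groups. Groups accounted for 0.383% (Igf2) to 9.67% (Dcn) of the variance of the log2 counts, with a median of 1.09% over the 10 genes, against a median of 7.54% over all 18008 genes tested.

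Expression was modelled over all 15 libraries with edgeR's likelihood ratio test at an FDR of at most 0.01, once with UQ alone and once with 5 additional factors of unwanted variation estimated by RUVs, the study's own normalization. RUVs uses negative control genes and replicates to estimate variation that the groups do not explain. Between FC and CC, RUVs called 403 genes, which is 2.24% of all genes tested, and 1 of the 10 genes. This gene was Col1a1, with a log2 fold change of -0.34 ± 0.09 (SE). Its mean counts were 546 ± 181 in FC and 610 ± 92.6 in CC (SD, n = 5 each), and its ranges overlapped. With UQ alone the log2 fold change was -0.16 ± 0.22 and it was not called. The call held under 12 of 26 alternative settings: it was absent with the quasi-likelihood test, DESeq2, 1 or 3 RUVs factors, no filter, and UQ with or without the library number as a block, and after FC7, FC8, RT7, RT8, CC5, CC6 or CC7 was left out. The log2 fold change itself was -0.34 with the quasi-likelihood test, -0.33 with DESeq2 and -0.34 with 1 factor, 3 factors or no filter, but -0.22 without FC7. Without FC3 and RT3, without FC5 and without CC8, Col1a1 and Col1a2 were called, and without FC6, Slc22a6 and Aldh1a2 were called beside them.

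The other 9 genes had log2 fold changes between FC and CC of -0.26 ± 0.14 (Aldh1a2) to 0.05 ± 0.10 (Slc13a4) after RUVs, and 8 of the 10 were below 0. Their median was -0.16, against -0.01 over all genes tested. With UQ alone 5 of the 10 were below 0, the median was 0.04, and none was called (0.189% of all genes were). Slc6a13, Slc22a6, Fmod and Igf2 were below 0 after RUVs and above 0 after UQ. Igf2 had -0.03 ± 0.10 after RUVs, with an approximate 95% interval of -0.21 to 0.16, and 0.09 ± 0.25 after UQ, with an interval of -0.40 to 0.57. The SE of the 10 genes had a median of 0.10 after RUVs and 0.29 after UQ. The 5 RUVs factors together fitted 89.1% of the variance of the mean deviation of the 10 genes over the 15 libraries, and 71.5% (Dcn) to 94.7% (Slc13a4) of the variance of single genes among them, against a median of 85.1% over all genes tested.

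Between RT and CC, none of the 10 was called by the likelihood ratio test after RUVs (1.01% of all genes were, 182 in number) or after UQ (0.106%). The quasi-likelihood test and DESeq2 also called 0 of the 10 (0.367% and 0.472% of all genes). Fold changes after RUVs lay between -0.19 ± 0.12 (Slc6a13) and 0.09 ± 0.13 (Slc22a6), with a median of -0.05, against -0.00 for all genes. For Igf2 the value was -0.05 ± 0.10, with an interval of -0.24 to 0.13.

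Between FC and RT the likelihood ratio test called 22 genes after RUVs (0.122%) and none of the 10. After UQ it called 0% of all genes, none of the 10 among them. The quasi-likelihood test and DESeq2 also called 0 of the 10 (0% and 0.0222% of all genes). Over 14991 genes, the deviations of same-numbered FC and RT libraries had r of 0.381 to 0.919. FC5 and FC7 were nonetheless closer to an RT library of another number. With the number as a block 82 genes and again none of the 10 were called. Log2 fold changes ran over -0.26 ± 0.19 (Fmod) to 0.07 ± 0.10 (Ogn). FC vs CC and RT vs CC share the CC libraries and are not independent of each other. Intervals that span 0 do not show that the groups are equal.

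**Figure D3:**
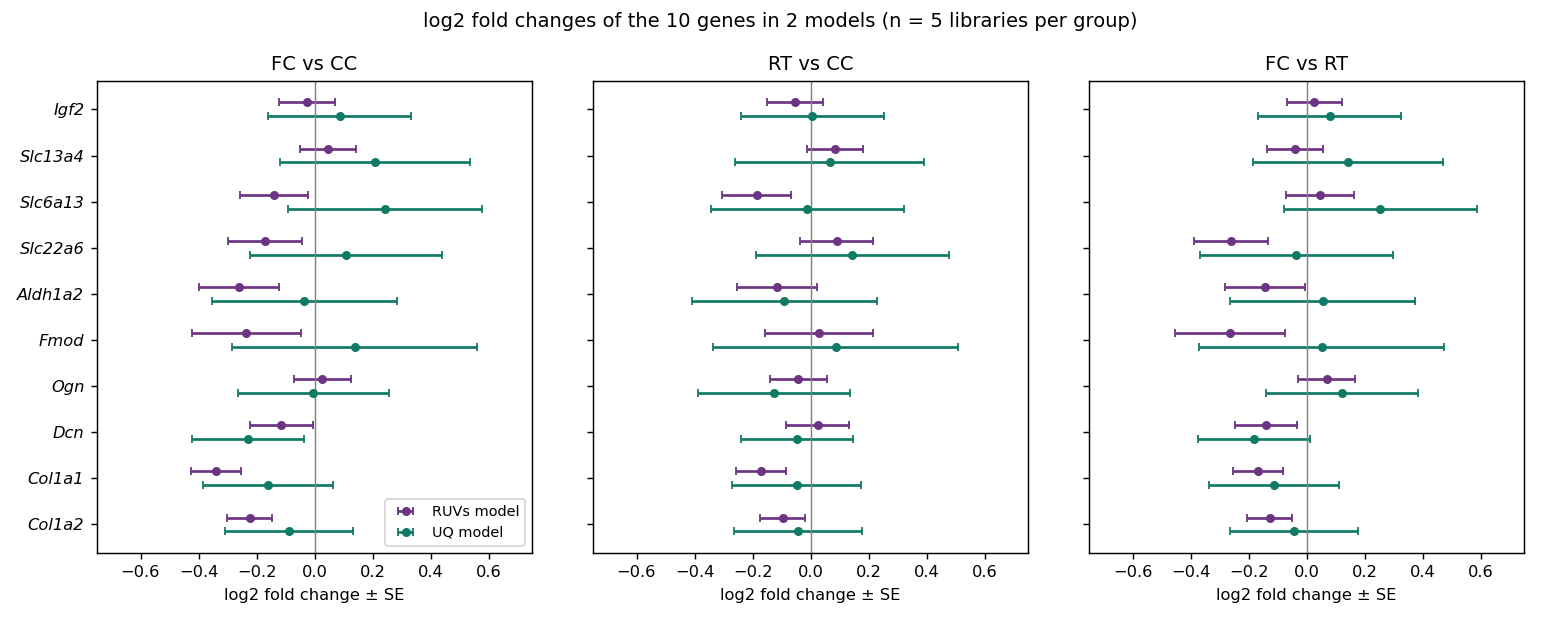
Log2 fold change ± SE (x axis) of the 10 genes for FC vs CC, RT vs CC and FC vs RT, after RUVs and after UQ, with 5 libraries per group. Col1a1 in FC vs CC (-0.34 after RUVs) is the only value called at an FDR of at most 0.01, and the UQ bars are wider throughout.

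The 10 genes were set beside 30 other genes of meningeal fibroblasts, all of which were tested. This list too was chosen with earlier results of these data known, so its likeness to the 10 genes is a description and no independent check of the label. The mean deviation of the 30 had r = 0.98 (rho = 0.93) with that of the 10 genes across the 15 libraries, 0.98 after the group means were subtracted and 0.97 without FC3 and RT3. None of the 30 was called in any of the 3 comparisons by the likelihood ratio test after RUVs, the quasi-likelihood test or DESeq2, with 6, 2 and 2 at an unadjusted p under 0.05 for FC vs CC, RT vs CC and FC vs RT, against 16.5%, 11.1% and 10.7% of all genes tested. Between FC and CC, 1 of the 30 was called with the library number as a block beside RUVs, 1 without FC3 and RT3, 2 without FC6, and 1 without CC3 or without CC8. The median log2 fold changes of the 30 were -0.09 in FC vs CC, -0.02 in RT vs CC and -0.05 in FC vs RT. By the likelihood ratio test after RUVs, 2 of them came near the threshold but did not reach 0.01. Foxc1, a forkhead factor of the developing meninges, had 245 ± 34.2 counts in FC and 284 ± 42.5 in CC (log2 fold change -0.26 ± 0.08, adjusted p = 0.042). Pcolce, which enhances procollagen processing, had 515 ± 277 in FC and 353 ± 68.9 in CC (0.21 ± 0.07, adjusted p = 0.039). Its counts were 946, 633, 355, 271 and 369 in FC, so that FC3 and FC5 carried the higher mean, and 272, 462, 331, 347 and 352 in CC.

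Relatives of the genes by family gave few calls. Of 12 tested members of the proteoglycan family and 26 genes of fibrillar collagens and their processing, none was called in the 3 comparisons by any of the 3 tests. At an unadjusted p under 0.05 by the likelihood ratio test after RUVs, FC vs CC, RT vs CC and FC vs RT are given in that order. There were 1, 0 and 1 in the proteoglycan family and 4, 1 and 7 in the collagens. The shares of all genes tested were 16.5%, 11.1% and 10.7%. The IGF system, from receptors to binding proteins, had 16 of 21 genes tested and none called by any of the 3 tests. It had 4, 4 and 3 genes at an unadjusted p under 0.05, in the same order and by the same test. Leaving out 1 library gave at most 1 call in the proteoglycan family (without CC8), 3 in the collagens (without CC8) and 1 in the IGF system (without RT7, CC3 or CC8) between FC and CC, and 1 in the collagens between FC and RT (without RT5 or RT8), and the block beside RUVs gave 1 in the IGF system between FC and CC. Igf1r, the main signalling receptor for Igf2, had 588 ± 169 counts in FC and 568 ± 91.8 in CC (log2 fold change 0.20 ± 0.06, adjusted p = 0.022). Igfbp2, a binding protein also made by the meninges, was highest in FC3 (3301) and RT3 (2841), against 927 to 1787 in the other 13 libraries.

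In the retinoic acid pathway, of which 17 genes were tested, none was called in RT relative to CC after RUVs. Cyp26b1, which breaks down retinoic acid, fell in FC, with 477, 828, 973, 677 and 701 counts in FC, against 805, 945, 881, 897 and 1086 in CC (log2 fold change -0.25 ± 0.07, adjusted p = 0.0061), and was called under 4 of 26 alternatives: the other filter, the library number as a block beside RUVs, and without FC5 or FC6. It was not called after UQ. Among 12 tested relatives of the transporters, Slc26a2, a sulfate and anion carrier, rose in FC, with 249, 562, 597, 481 and 495 counts against 489, 422, 365, 454 and 393 in CC (0.29 ± 0.06, adjusted p = 4.45e-04). It was called under 20 of 26 alternatives but not after UQ with or without the block, with 1 RUVs factor, by the quasi-likelihood test or DESeq2, or without FC6, and its FC3 count was the lowest of all libraries.

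Markers of neighbouring cells that a dissected hippocampus can carry were set beside the 10 genes. The list of border-associated macrophages, which live in the meninges, had r = 0.94 (rho = 0.91) with the 10 genes, pericytes and smooth muscle 0.92 (rho = 0.91) and red blood cells 0.89 (rho = 0.89). Without FC3 and RT3 these were 0.92, 0.94 and 0.86. Summed over the 5 tested genes, red blood cell counts ran over 2274 to 7955 in FC, 2253 to 6763 in RT and 2018 to 5490 in CC, with FC3, RT3 and CC5 the highest. Summed macrophage counts, over 9 of 10 genes, ran over 1295 to 1736 in FC, 1373 to 1652 in RT and 1496 to 1892 in CC. Endothelium (r = 0.66), ependyma (r = 0.57) and hippocampal neurons (r = -0.31) followed the 10 genes less closely. Without FC3 and RT3 these were 0.80, 0.26 and -0.21. None of the tested genes for ependyma, endothelium, pericytes and smooth muscle, macrophages, red blood cells, hippocampal neurons or neocortex and thalamus was called in any comparison after RUVs by the likelihood ratio test, the quasi-likelihood test or DESeq2. At an unadjusted p under 0.05 between FC and CC there were 7 of 9, 6 of 14, 2 of 12, 3 of 9, 0 of 5, 2 of 12 and 4 of 8 genes in these lists, in that order, against 16.5% of all genes tested. Some settings beside RUVs did give calls between FC and CC. With the library number as a block, 1 gene each of ependyma, endothelium and macrophages was called, and without FC3 and RT3, 2 of endothelium and 1 of macrophages. When 1 library was left out there were at most 2 for ependyma (without FC7), 2 for endothelium (without FC3, RT3 or CC8), 1 for macrophages (without CC3 or CC8), 2 for hippocampal neurons (without CC8) and 3 for neocortex and thalamus (without CC8). Between RT and CC 1 endothelial gene was called with the block and without CC8, and 1 neuronal gene without CC6 or CC8, and between FC and RT 1 neuronal gene without RT8 or CC5. The part of these cells in the values of the 10 genes was not tested.

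Choroid plexus epithelium had another pattern of libraries. Its mean deviation over 19 of 20 listed genes had r = 0.01 (rho = -0.06) with the 10 genes, and its highest libraries were FC5 (2.18), FC8 (1.25) and RT8 (0.82). Summed counts ran over 17040 to 89441 in FC, 14685 to 33322 in RT and 13725 to 15198 in CC. Of the 19 genes 17 rose in FC relative to CC after RUVs, 1 rose in RT relative to CC and 6 were higher in FC than in RT, and after UQ 8 rose in FC relative to CC. For FC vs CC the quasi-likelihood test called 11 and DESeq2 13, and 10 were called without FC5. For RT vs CC and for FC vs RT, UQ alone, the quasi-likelihood test and DESeq2 each called 0 of the 19. Ttr, which encodes the thyroxine carrier transthyretin, had 6174, 46548, 2332, 4958 and 19660 counts in FC and 5735, 2883, 1072, 2363 and 12255 in RT, against 547, 1048, 1120, 1153 and 803 in CC. FC8 thus combined a high choroid plexus signal with low counts of most of the 10 genes. CC5 had high counts of the 10 genes and a choroid plexus deviation of -0.46, which was still the highest of the 5 CC libraries. FC5, the highest in choroid plexus, also lay above the mean in the 10 genes (0.34).

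**Figure D4:**
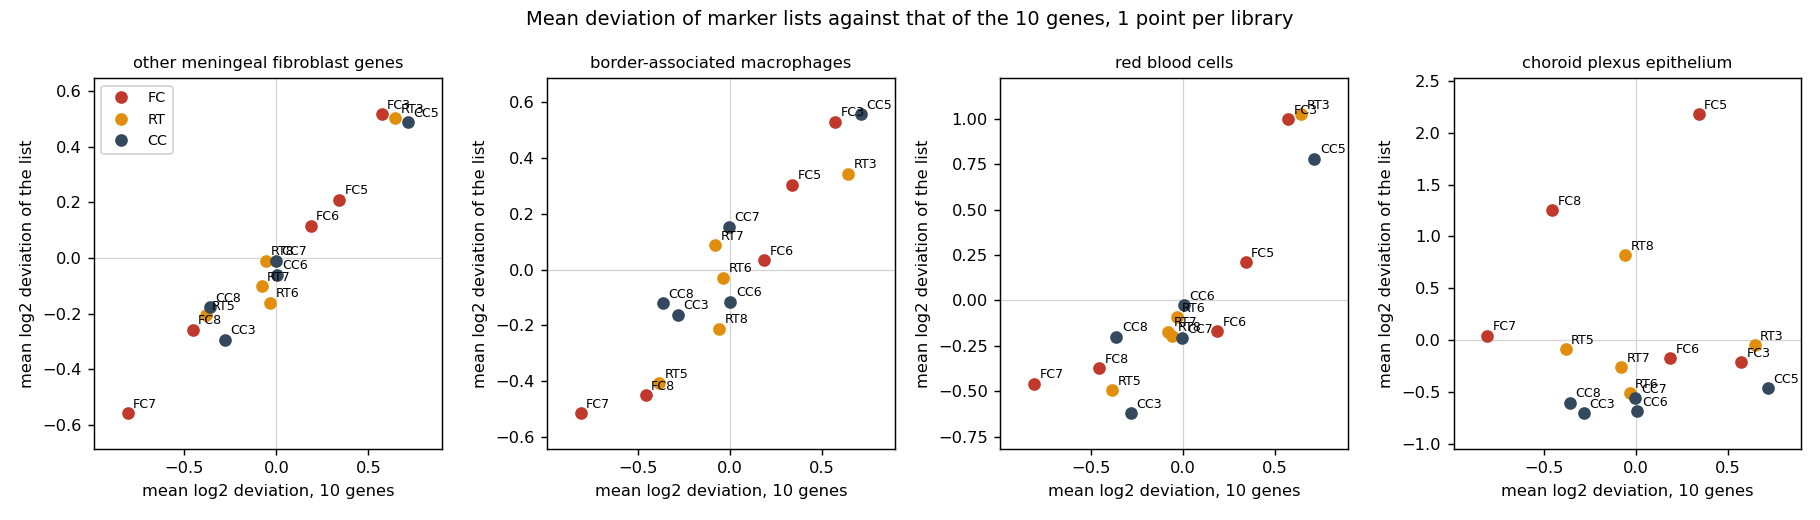
Mean log2 deviation of 4 marker lists (y axes) against that of the 10 genes (x axis), 1 point per library, coloured by group. Other meningeal fibroblast genes, macrophages and red blood cells line up with the 10 genes (r of 0.98, 0.94 and 0.89), and choroid plexus does not (r = 0.01), with FC5, FC8 and RT8 at its top.

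Across all other genes with a mean of at least 50 UQ counts, 14981 in number, the median r with the mean deviation of the 10 genes was 0.06. There were 72 genes at 0.8 or more and 7 at -0.8 or less. The 72 included 11 of 27 other meningeal fibroblast genes, 4 of 10 transporter relatives, 4 of 12 pericyte and smooth muscle genes and 5 of 5 red blood cell genes, but 0 of 18 choroid plexus genes and 0 of 14 IGF system genes. Most of the 72 were in none of the lists (48, out of 14806 such genes). The 12 genes most alike were Col3a1 (r = 0.96), Slc22a8 (0.95), Spp1 (0.95), Gjb2 (0.94), Aebp1 (0.94), Slc6a12 (0.94), Itih2 (0.94), Slc13a3 (0.94), Bmp7 (0.93), Sphk1 (0.92), Col9a2 (0.92) and Serpind1 (0.92). Col3a1 encodes collagen III, Gjb2 a connexin, and Slc22a8, Slc6a12 and Slc13a3 carriers of the same families as Slc22a6, Slc6a13 and Slc13a4. Without FC3 and RT3 their r lay between 0.89 (Serpind1) and 0.96 (Aebp1), and 8 of the 12 were again among the 12 most alike. None of the 12 was called between FC and CC, with Col9a2 (log2 fold change -0.24 ± 0.07, adjusted p = 0.022) nearest to the threshold.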

How the data were processed

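PolyA RNA of mouse hippocampi was sequenced in 15 libraries. Mapping was by GSNAP on mm9, with only unique, concordant alignments retained, and the authors deposited raw, unscaled counts per Ensembl 65 gene from HTSeq 0.6.1. Identifiers were named, placed and given exon lengths and GC content from GENCODE vM1, on the same build, in which all 37310 matched. The article and the series' own description differ on the number of animals and days, so n counts libraries. Groups came from the sample titles. No pair of libraries within a group agreed within sampling noise.

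A gene entered the test if over 10 reads were found in over 5 libraries, which left 18008 genes. They were fitted in R 4.3.3 with edgeR 4.0.16, after UQ and 5 RUVs factors from the study's 625 negative control genes. RUVs was rewritten from its published algorithm. The test was a likelihood ratio test in 1 model of all 15 libraries, as in the study, with Benjamini-Hochberg adjustment over all 18008 genes. SEs are the log2 fold change divided by the root of the likelihood ratio, and intervals are normal approximations from it. The quasi-likelihood test, DESeq2 1.42.0, TMM, other filters, 1 or 3 factors, the library number as a block and leaving out libraries were alternatives. The model was tested on simulated data.

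Same-numbered FC and RT libraries deviated together (r of 0.381 to 0.919 over 14991 genes for 5 of 5 numbers, with a median of 0.732). Same-numbered FC and CC libraries (-0.49 to 0.347) and RT and CC libraries (-0.509 to 0.111) did not. FC and RT libraries of different numbers ran from -0.81 to 0.669, with a median of 0.206 and 12 of 20 pairs above 0.1. These 12 were the pairs without FC3 or RT3, at 0.122 to 0.669. The different-numbered pairs with FC3 or RT3 were all below 0. Deviations were taken from group means that include FC3 and RT3, so these 2 libraries enter every r between FC and RT libraries. FC7 was closer to RT6 (0.669) and RT5 (0.651) than to RT7 (0.381), and FC5 was slightly closer to RT6 (0.542) than to RT5 (0.536). A pairing by number is thus not settled by these values.

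The 10 genes and all lists were chosen with earlier results of these data known. The genes named are the 10, the genes of each list with the smallest p in FC vs CC or RT vs CC, up to 4 a list, the 12 non-members most alike, and Fos, Arc and Ttr, of which only those a result turns on are given. Promoter windows came from RefSeq on GRCm38.p6 and were not converted to mm9. No p-value is given for the 10 genes. Their fold changes and calls are descriptions. A result of the retinoic acid list is not reported here.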

Additional observations from a re-analysis of the deposited data

Results flagged for a closer look

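In 6 of 30 combinations of gene and group, the highest of 5 libraries was separated from the rest by more than 0.71 of the group's range, the limit of Dixon's test, which chance exceeds in about 1 of 20 groups. The 10 genes were selected on these counts and move together, so the number of such cases is a description and is not set against that rate. Among CC libraries, CC5 was set apart for Slc13a4 (920 UQ counts, against 315 to 433 in the other CC libraries), Aldh1a2 (592, against 217 to 302), Fmod (1161, against 332 to 561) and Ogn (532, against 253 to 327). Among RT libraries, RT3 was set apart for Slc6a13 (1085, against 406 to 564) and Col1a2 (1305, against 711 to 873). CC5 and RT3 were also among the 3 highest libraries for the red blood cell list. No FC library was set apart in this way for any of the 10 genes. For Slc6a13, FC3 (1539, against 359 to 706 in the other FC libraries) fell just short of the limit.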

How the results depend on the processing

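The 30 log2 fold changes of the 10 genes moved by less than 1 SD between libraries of a group under all 26 alternatives. That SD was 0.32 (Dcn) to 0.86 (Fmod) in log2, a wide limit beside the SEs of 0.08 to 0.19 after RUVs. Fold changes within this limit could still change sign, as given above for Slc6a13, Slc22a6, Fmod and Igf2 in FC vs CC. Counts of calls moved more. Between FC and CC, 403 genes were called (237 higher, 166 lower), against 34 (32 higher, 2 lower) with UQ alone, 122 and 176 with 1 and 3 RUVs factors, 98 with the quasi-likelihood test, 164 with DESeq2, 266 with no filter, 45 with UQ and the library number as a block, and 249 to 653 when 1 library was left out. Of the 10 genes, 1 was called, against 0 in these 7 settings, 2 without FC3 and RT3, and 0 to 4 when 1 library was left out. Between RT and CC the count was 182, against 19 with UQ alone, 85 with 1 factor, 66 with the quasi-likelihood test, 85 with DESeq2, 27 with UQ and the block, and 145 to 276 without 1 library.

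Between FC and RT it was 22, against 0 with UQ alone, with 1 factor, with the quasi-likelihood test and with UQ and the block, 1 with 3 factors, 4 with DESeq2, 82 with RUVs and the block, 62 without FC3 and RT3, and 11 to 92 without 1 library. At an unadjusted p under 0.05 there were 122 genes with UQ alone and 1811 with the quasi-likelihood test. Of the 10 genes, 0 were called between FC and RT, and 0 to 1 without 1 library (Slc22a6, without FC6). The count between FC and RT fell below or rose above the limit of 1.5 times without FC5 (11), FC6 (55), FC7 (84), FC8 (40), RT5 (72), RT6 (42), RT8 (92), CC6 (40), CC7 (34) or CC8 (38). Between FC and CC this held without FC5 (249) and CC8 (653), and between RT and CC without CC8 (276). The block changed no call of the 10 genes beside RUVs. The cause of these shifts was not tested. Each of the 10 genes had 89 reads or more in every library.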
